A study of Mus musculus with 3 samples.

Results

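The genes described here are the Notch receptors Notch1, Notch2 and Notch3, the ligands Dll1, Jag1 and Jag2, and the target genes Hes1, Hes5, Hey1 and Heyl, measured in kidney rudiments of Fgfrl1-/- and wildtype mouse embryos. They were chosen by name: every array probe outside the control spots whose listed gene was one of these 10 entered, whatever its signal. This gave 15 of the 41174 probes, in 33 of the 43379 spots, and 10 of the 19754 genes named on the array. The 3 receptors had 6 probes, the 3 ligands 4 and the 4 target genes 5.

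Both groups were C57BL/6 embryos at E12.5, Fgfrl1-/- or wildtype (wt). They were littermates by the study's methods, dissected side by side. Each of the 3 arrays carried 1 pool of Fgfrl1-/- rudiments, labelled with Cy3, and 1 pool of wildtype rudiments, labelled with Cy5, with 6 to 9 rudiments in a pool. The dyes were not swapped, so that dye and genotype cannot be told apart, and the embryos behind a pool share 1 value. Array 1 lay on one slide, arrays 2 and 3 on another. In whole rudiments, fewer cells of a type and less RNA per cell cannot be told apart.

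Notch receptors are transmembrane proteins that are bound by Delta-like or Jagged ligands on a neighbouring cell. Ligand binding leads to cleavage of the receptor, and its intracellular part enters the nucleus, where it joins the DNA-binding protein Rbpj and the Maml coactivators. Genes of the Hes and Hey families, which encode basic helix-loop-helix repressors, are the classical targets. In the kidney the pathway is known for patterning the early nephron, which arises when mesenchyme around the ureteric tip turns into an epithelial renal vesicle.

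The stretches of 250 bases before the start of Hes5, Jag1 and Dll1 are shown because these genes had ratios among the lowest of the targets and the ligands and the Hes5 stretch holds the core of the Rbpj binding site. They are RefSeq sequences on GRCm38.p6, written 5′ to 3′ on the strand of the gene. Capitals mark the letters GTGGGAA, or their reverse complement where the site lies on the opposite strand. The table used matched 7 of the 10 genes, with 8 starts, and not Hes1, Hey1 and Heyl.

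Hes5, chr4:154960673-154960922, plus strand: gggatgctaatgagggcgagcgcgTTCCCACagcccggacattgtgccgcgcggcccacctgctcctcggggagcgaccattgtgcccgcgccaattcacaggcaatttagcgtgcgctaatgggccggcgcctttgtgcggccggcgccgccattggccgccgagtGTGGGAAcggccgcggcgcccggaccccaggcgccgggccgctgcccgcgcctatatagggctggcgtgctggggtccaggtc
Jag1, chr2:137116521-137116770, minus strand: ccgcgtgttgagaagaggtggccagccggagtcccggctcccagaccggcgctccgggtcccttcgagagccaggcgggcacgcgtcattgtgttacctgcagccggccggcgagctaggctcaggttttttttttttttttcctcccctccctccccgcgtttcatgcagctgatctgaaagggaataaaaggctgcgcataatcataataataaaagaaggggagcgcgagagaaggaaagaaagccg
Dll1, chr17:15376933-15377182, minus strand: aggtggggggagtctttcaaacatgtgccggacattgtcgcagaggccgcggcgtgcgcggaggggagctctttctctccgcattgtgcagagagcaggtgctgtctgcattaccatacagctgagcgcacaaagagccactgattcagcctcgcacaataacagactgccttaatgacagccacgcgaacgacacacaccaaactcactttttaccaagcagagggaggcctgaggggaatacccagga

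Searched on both strands for GTGGGAA and GTGAGAA, which differ in 1 letter, the Hes5 stretch held GTGGGAA 2 times. The match nearest the start began 83 bases before it on the strand of the gene, and the other lay 226 bases before it on the opposite strand. The 7 other starts of the family, including both of Dll1, held neither word in their 250 bases. Among 32851 promoters of the same length, 9.01% held at least 1 match and 0.463% held 2 or more. A match describes letters only and says nothing on whether the protein binds there.

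As a check of the labels, the Fgfrl1 probe had log2 ratios of Fgfrl1-/- over wildtype of -1.21, -1.51 and -1.83 on arrays 1, 2 and 3, a mean of -1.52 ± 0.306 (SD, n = 3) with an adjusted p of 0.0332. The arrays resembled each other unequally. Across all probes, which are not independent replicates, the ratios of array 1 correlated with those of arrays 2 and 3 at r = 0.106 and 0.222, and those of arrays 2 and 3 with each other at r = 0.713. The calls below rest on limma's moderated test over all probes with adjustment by the method of Benjamini and Hochberg, and a probe counted as changed at an adjusted p below 0.05. By this rule 0.398% of all probes were lower in the Fgfrl1-/- pools (164 probes) and 0.289% were higher (119 probes). With median centring in place of loess the split was 91 lower and 2 higher.

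Of the 15 probes of the Notch genes, 3 were lower in the Fgfrl1-/- pools, which is 20.0% against 0.398% of all probes, and 0 were higher, against 0.289%. The 3 were those of Hes5, Hey1 and Dll1. The study's own list of genes lowered on these same arrays holds Jag1 and all 3 of these genes. Their fall was thus known beforehand, and the share of 20.0% is no independent finding. The 3 calls needed arrays 2 and 3. Without array 2 or without array 3, 0 of the 15 probes and 0 of all probes were called lower. The log2 ratios then stayed at -1.33 and -1.33 for Hes5, -1.31 and -1.23 for Hey1 and -1.02 and -0.95 for Dll1. Without array 1, 9 of the 15 were called lower beside 4172 of all probes, the additional ones being both Notch1 probes, Notch2 probe (c), Jag1 probe (a), Hes1 and Heyl probe (a). At an unadjusted p below 0.05 there were 8 of the 15 probes, all lower, against 15.9% of all probes in either direction. In all, 8 of the 15 probes had a negative ratio on each of the 3 arrays, and 1, that of Notch3, a positive one, against 19.2% and 19.0% of all probes. The median log2 ratio was -0.26 over the 15 probes and 0.0037 over all probes. By role, the medians were -0.14 for the 6 receptor probes, -0.64 for the 4 ligand probes and -0.34 for the 5 target probes, with 0, 1 and 2 probes called. Here and below, letters such as (a) and (b) order the probes of 1 gene by their start on the chromosome. These medians join probes of unlike genes, whose means ran from -1.28 to -0.01 among the ligand probes and from -1.39 to -0.15 among the target probes. Whether the roles differ from each other was not tested.

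**Figure D1:**
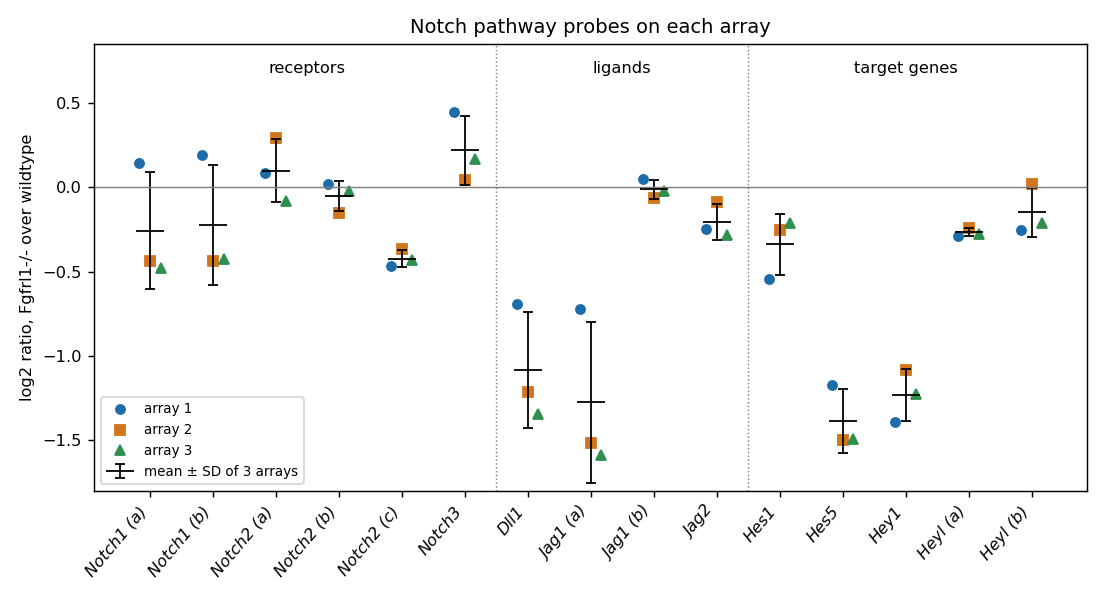
Log2 ratio of Fgfrl1-/- over wildtype (vertical axis) for the 15 probes of the Notch genes (horizontal axis), with 1 symbol per array and the mean ± SD over 3 arrays in black. Letters in brackets order the probes of 1 gene by their start on the chromosome. The probes of Dll1, Hes5 and Hey1 and probe (a) of Jag1 lie at -0.69 or lower on every array, and the lowest array of any other probe is at -0.54.

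Among the target genes, Hes5, whose product holds back differentiation in neural and other progenitors, fell in the Fgfrl1-/- pools. Its probe (chr4:153806038-153806097 on mm8, the build of the files) gave normalized log2 signals of 7.42, 7.17 and 7.07 in the Fgfrl1-/- pools of arrays 1, 2 and 3, and of 8.59, 8.67 and 8.57 in the wildtype pools. The groups did not overlap, and the wildtype pools lay within a narrow band. The log2 ratio was -1.17, -1.50 and -1.49 on the 3 arrays, with a mean of -1.39 ± 0.189 (SD, n = 3) and a 95% confidence interval of -1.62 to -1.15. This is 2.61-fold less RNA in the Fgfrl1-/- pools, at an adjusted p of 0.0263. Over the 17 processing alternatives the log2 ratio lay between -2.05, with the scanner software's ratios, and -1.33, and the adjusted p exceeded the threshold under 5 of them. As reported here, it was the value at rank 18 from the lowest of the 41174 probes.

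Hey1, a repressor of the Hes-related family that acts downstream of Notch in blood vessels and in the nephron, fell by 1.23 on the log2 scale. Its probe (chr3:8646505-8646564) had log2 signals of 11.23, 11.27 and 11.21 in the Fgfrl1-/- pools and of 12.61, 12.35 and 12.43 in the wildtype pools. The Fgfrl1-/- pools were almost equal, and the spread came from the wildtype side, where array 1 was highest. The ratios were -1.39, -1.08 and -1.22, with an SD of 0.154 (n = 3), a 95% confidence interval of -1.45 to -1.02 and an adjusted p of 0.0274. The fold was 2.35, the rank 25 from the lowest. Under the alternatives the log2 ratio lay between -1.58 and -1.15, and the adjusted p exceeded the threshold under 5 of 17.

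Hes1, the Hes gene that is active in most Notch-responsive tissues, had a negative ratio on every array that did not pass the test. Its probe is listed at chr16:29985644-29985939, a span longer than the probe itself. The log2 signals were 8.52, 8.59 and 8.64 in the Fgfrl1-/- pools and 9.07, 8.84 and 8.85 in the wildtype pools, so that the groups did not overlap. The ratios were -0.54, -0.25 and -0.21, a mean of -0.34 ± 0.181 (SD, n = 3), with a 95% confidence interval of -0.57 to -0.11 and an adjusted p of 0.168. Array 1 stood apart from the other 2 here.

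Heyl, another gene of the Hey group, was read by 2 probes, and neither passed the test. Probe (a), at chr4:122750548-122750607, gave log2 ratios of -0.29, -0.24 and -0.27, with a mean of -0.27 ± 0.0242 (SD, n = 3) and an adjusted p of 0.148. Its signals were 7.99, 7.92 and 7.91 in the Fgfrl1-/- pools and 8.28, 8.16 and 8.19 in the wildtype pools. Here the arrays lay closer together than for any other of the 15 probes. Probe (b), at chr4:122752035-122752094, gave -0.26, 0.02 and -0.21, a mean of -0.15 with an adjusted p of 0.484. The 2 probes thus had the same sign on arrays 1 and 3 only. Their intervals, -0.44 to -0.10 for probe (a) and -0.36 to 0.06 for probe (b), lie above those of Hes5 and Hey1, which end at -1.15 and -1.02.

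**Figure D2:**
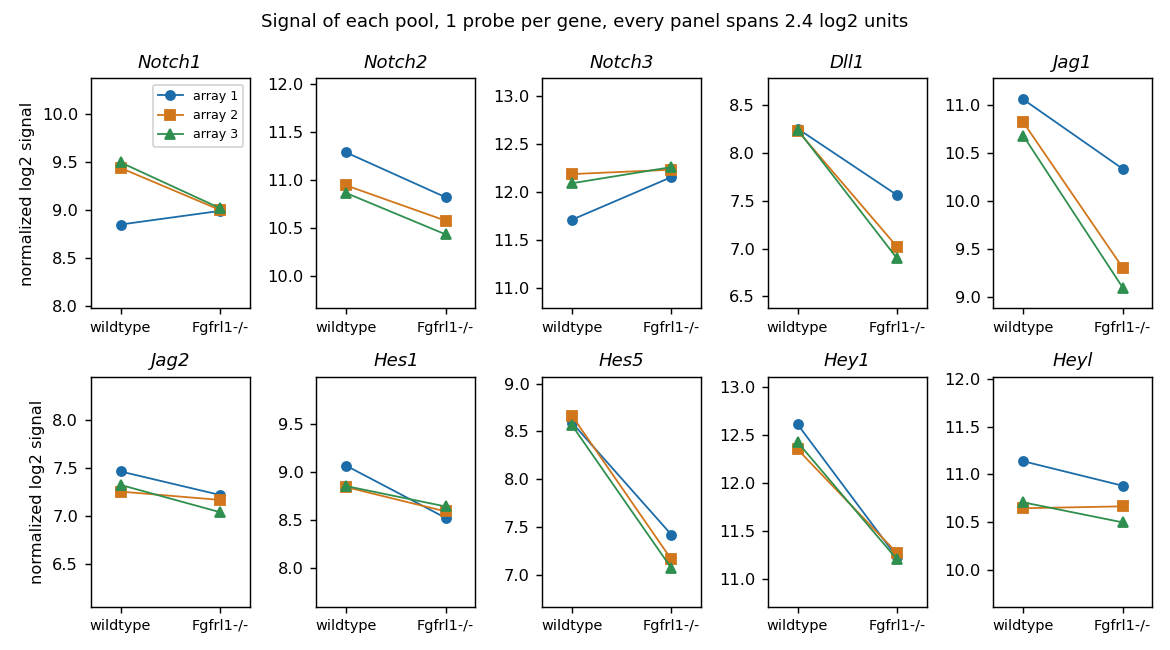
Normalized log2 signal (vertical axes) of the wildtype and the Fgfrl1-/- pool of each array, joined by a line, for 1 probe of each of the 10 genes; all panels have the same height in log2 units. For genes with several probes the one with the highest mean signal is shown. The lines fall steeply for Dll1, Jag1, Hes5 and Hey1 on all 3 arrays, and for Notch1 the line of array 1 runs against the other 2.

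Among the ligands, Dll1, a Delta-like ligand with a part in the early nephron, was lower in the Fgfrl1-/- pools. Its probe (chr17:15072622-15072681) had log2 signals of 7.56, 7.02 and 6.90 in the Fgfrl1-/- pools and of 8.25, 8.23 and 8.24 in the wildtype pools. The wildtype pools were level, and the Fgfrl1-/- pool of array 1 lay above the other 2. The ratios were -0.69, -1.21 and -1.34, a mean of -1.08 ± 0.344 (SD, n = 3) with a 95% confidence interval of -1.43 to -0.74. This is a 2.12-fold difference at rank 37 from the lowest. The adjusted p of 0.0497 lay just under the threshold, and it exceeded the threshold under 11 of 17 processing alternatives, with the ratio between -1.75 and -0.95 in all of them.

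The array carries 10 spots of the Dll1 probe, which show the spread between spots of 1 array. On array 1 the 10 spots ran from -0.91 to -0.43, on array 2 from -1.40 to -0.96 and on array 3 from -1.47 to -1.06. The SD between spots was 0.152, 0.149 and 0.128, against an SD of 0.344 between the arrays, which differ in their pools, hybridization and, for array 1, slide and software version. Every spot was negative, and the spots of array 1 did not overlap those of arrays 2 and 3.

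Within each array the ratio of the Dll1 spots also went with their place on the slide. The 10 spots lie between rows 36 and 526 of 532. Over them Spearman's rho of the log2 ratio with the row was 0.83, 0.95 and 0.89 on arrays 1, 2 and 3. With the column it was -0.48, -0.84 and -0.75, so that row and column cannot be told apart over these spots. Over the 10 spots of Notch1 probe (a), rho was 0.83, 0.58 and 0.75 with the row and 0.11, -0.25 and -0.08 with the column. These values describe spots that share 1 pair of pools per array. Along the rows the median ratio of all spots moved the same way. On array 1 it went from -0.06 in the fifth with the lowest row numbers to 0.10 in the fifth with the highest. On arrays 2 and 3 it went from -0.07 to 0.0046 and from -0.06 to 0.03. With each spot centred along the rows, a setting chosen after seeing these values, Dll1 was at -1.10 (adjusted p = 0.0459), Hes5 at -1.42 (0.0218) and Hey1 at -1.23 (0.0218), and Jag1 probe (a) at -1.26 (0.0628). The same 3 of the 15 probes were called. The SD between the Dll1 spots went from 0.152, 0.149 and 0.128 to 0.103, 0.135 and 0.107 with this centring.

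**Figure D3:**
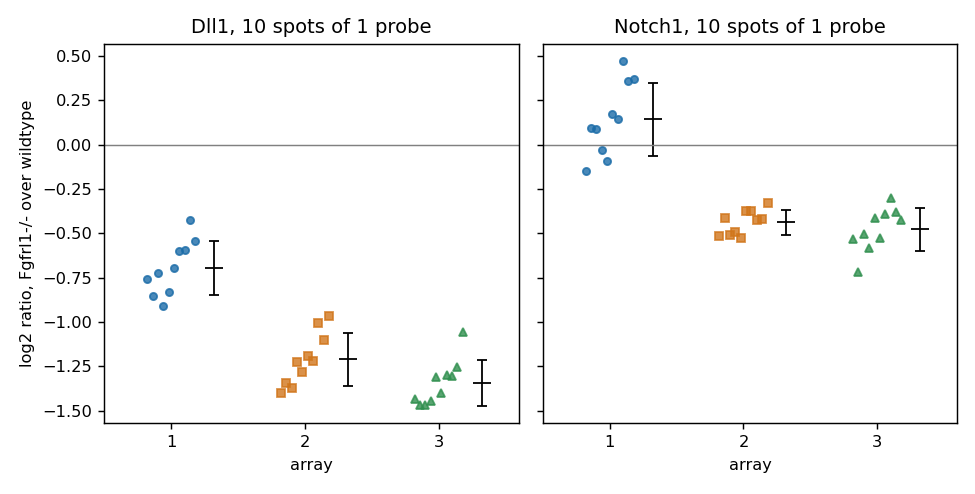
Log2 ratio of Fgfrl1-/- over wildtype (vertical axis) of each of the 10 spots of the Dll1 probe and of probe (a) of Notch1 on arrays 1, 2 and 3 (horizontal axis), with the mean ± SD between spots in black. Every Dll1 spot is negative, from -1.47 to -0.43, whereas the Notch1 spots of array 1 spread from -0.15 to 0.47 and those of arrays 2 and 3 are all negative. Spots of an array are drawn from left to right in the order of their rows, and they rise toward the right.

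Jag1, the Jagged ligand that also acts in bile duct and heart development, had a difference of similar size, but its adjusted p of 0.0604 missed the threshold. By the study's quantitative PCR at E12.5, Dll1 and Hey1 fell by less than the study's fold cutoff, and Jag1 fell by more than either. Probe (a), at chr2:136773138-136773197, had log2 signals of 10.34, 9.31 and 9.10 in the Fgfrl1-/- pools and of 11.06, 10.82 and 10.68 in the wildtype pools. The groups did not overlap, and again the Fgfrl1-/- pool of array 1 was the highest of its group. The ratios of -0.72, -1.52 and -1.58 gave a mean of -1.28 ± 0.479 (SD, n = 3), a 2.42-fold difference, with a 95% confidence interval of -1.73 to -0.83 and rank 24 from the lowest. Without array 1 the mean was -1.55 with an adjusted p of 9.2e-08, in a fit of 2 arrays of 1 slide. That fit called 4172 of all probes lower and 3494 higher. Without array 2 and without array 3 the means were -1.15 and -1.12, with adjusted p of 0.383 and 0.480.

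Probe (b) of Jag1, at chr2:136774647-136774706, did not show this difference. It was well above background in 1 of 3 Fgfrl1-/- pools and in 0 of 3 wildtype pools, so that it bears on Jag1 RNA only at the limit of detection. Its ratios were 0.05, -0.06 and -0.02, a mean of -0.01 with an adjusted p of 0.966. Which part of the Jag1 transcript each probe matches was not read here, since no annotation of mm8 was used.

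Jag2, the other Jagged ligand, had a probe at chr12:113356484-113356543 with log2 signals of 7.22, 7.17 and 7.04 in the Fgfrl1-/- pools and 7.46, 7.25 and 7.32 in the wildtype pools. The groups did not overlap but lay close together. The ratios were -0.25, -0.09 and -0.28, a mean of -0.21 ± 0.104 (SD, n = 3) with an adjusted p of 0.282. The 95% confidence interval ran from -0.40 to -0.01 and so does not reach the intervals of Dll1 or of Jag1 probe (a).

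**Figure D4:**
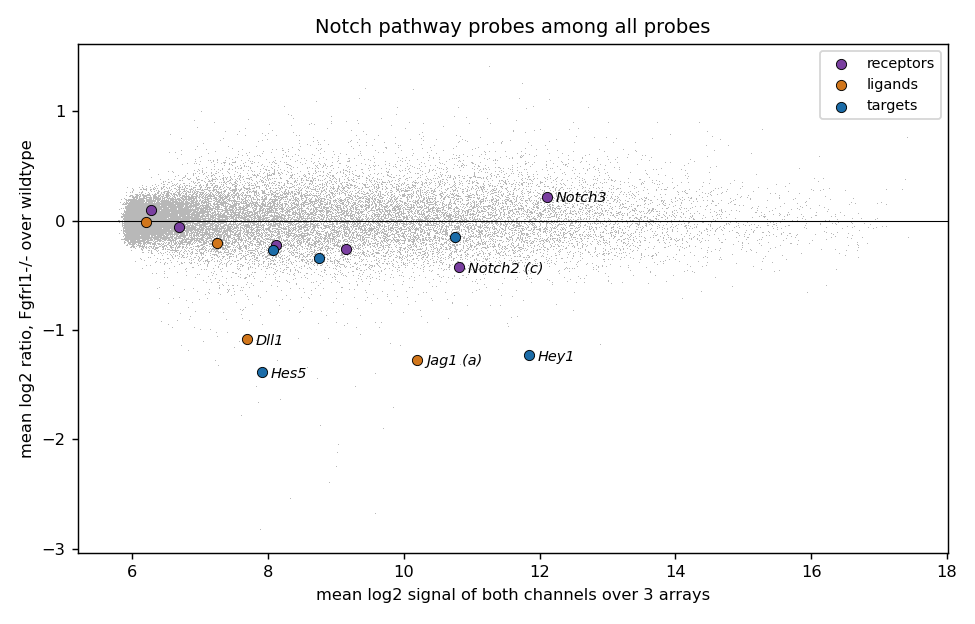
Mean log2 ratio of Fgfrl1-/- over wildtype (vertical axis) against the mean log2 signal of both channels over 3 arrays (horizontal axis) for all 41174 probes (grey) and the 15 probes of the Notch genes, coloured by role. Dll1, Jag1 probe (a), Hes5 and Hey1 lie at the lower edge of the cloud, at ranks 37, 24, 18 and 25 from the lowest ratio, and the receptors lie inside it.

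Of the 6 receptor probes, 0 passed limma's test, and 1, of Notch2, had an unadjusted p below 0.05. Notch2, the receptor on which formation of the proximal nephron depends, had 3 probes with unlike values. Probe (c), at chr3:98235396-98235455, was the brightest and gave log2 signals of 10.82, 10.57 and 10.43 in the Fgfrl1-/- pools and of 11.28, 10.94 and 10.86 in the wildtype pools. Its ratios of -0.47, -0.37 and -0.43 were nearly the same on the 3 arrays, with a mean of -0.42 ± 0.0502 (SD, n = 3), a 95% confidence interval of -0.60 to -0.25 and an adjusted p of 0.0776. The groups did not overlap, but the highest Fgfrl1-/- pool, on array 1, lay close to the lowest wildtype pool, on array 3.

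The other Notch2 probes were dimmer. Probe (a), at chr3:98232687-98232746, was well above background in 1 of 3 Fgfrl1-/- pools and 2 of 3 wildtype pools, and gave 0.09, 0.29 and -0.08, a mean of 0.10 with an adjusted p of 0.697. Its sign turned under 3 alternatives: without background subtraction, with the scanner software's ratios and in the submitters' table. Probe (b), at chr3:98234325-98234384, gave 0.02, -0.15 and -0.02, a mean of -0.05 with an adjusted p of 0.812. Over the alternatives its mean lay between -0.46, with the scanner software's ratios, and -0.0027. The same scanner ratios put probe (c) at -0.45, so that the gap between these 2 probes depends on the processing.

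Notch1, the receptor best known from blood and vessel development, had ratios of opposite sign on the 2 slides. Probe (a), at chr2:26281261-26281319, had log2 signals of 8.99, 9.00 and 9.02 in the Fgfrl1-/- pools and of 8.85, 9.44 and 9.50 in the wildtype pools. The Fgfrl1-/- pools were level, whereas the wildtype pool of array 1 lay below them and those of arrays 2 and 3 above. The ratios were 0.14, -0.44 and -0.48, with a mean of -0.26 ± 0.347 (SD, n = 3) and an adjusted p of 0.455.

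This probe too was printed in 10 spots. Between spots the SD was 0.206, 0.0695 and 0.120 on arrays 1, 2 and 3, and no spot of array 2 or 3 reached the range of array 1, where the lowest spot was at -0.15. Probe (b), at chr2:26281319-26281378, shares 1 base with probe (a) and is no independent reading of another part of the gene. It gave 0.19, -0.44 and -0.42, a mean of -0.22 with an adjusted p of 0.536. Without array 1 the means were -0.46 and -0.43, with adjusted p of 0.0010 and 0.0016, in a fit of 2 arrays of 1 slide. Without array 2 they were -0.17 and -0.12, and without array 3 -0.15 and -0.12, with adjusted p of at least 0.851.

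Notch3, the receptor of mural cells of blood vessels, was the one member with a positive ratio on every array. Its probe (chr17:31849609-31849668) had log2 signals of 12.15, 12.23 and 12.26 in the Fgfrl1-/- pools and of 11.71, 12.18 and 12.09 in the wildtype pools. The groups overlapped, with the wildtype pool of array 1 the lowest of the 6. The ratios were 0.44, 0.05 and 0.17, a mean of 0.22 ± 0.205 (SD, n = 3) with an adjusted p of 0.369, and with median centring the mean was -0.14.

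Because the slides differed, values were also taken within them. Array 1, alone on its slide, had smaller differences than the mean of arrays 2 and 3 for Dll1 (-0.69 against -1.28), Jag1 probe (a) (-0.72 against -1.55) and Hes5 (-1.17 against -1.50). It had larger ones for Hey1 (-1.39 against -1.15) and Hes1 (-0.54 against -0.23). All 5 of these probes were negative on both slides, and Notch1 probe (a) was not (0.14 against -0.46). With the slide as a fixed term, 8 of the 15 probes were called lower and 1, that of Notch3, was called higher, while 4649 probes in all were called lower and 5632 higher. That fit leaves the spread of 2 arrays on 1 slide as its measure of error. In the same fit the values of Hes5, Hey1, Dll1 and Jag1 probe (a) were -1.33, -1.27, -0.99 and -1.14.

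**Figure D5:**
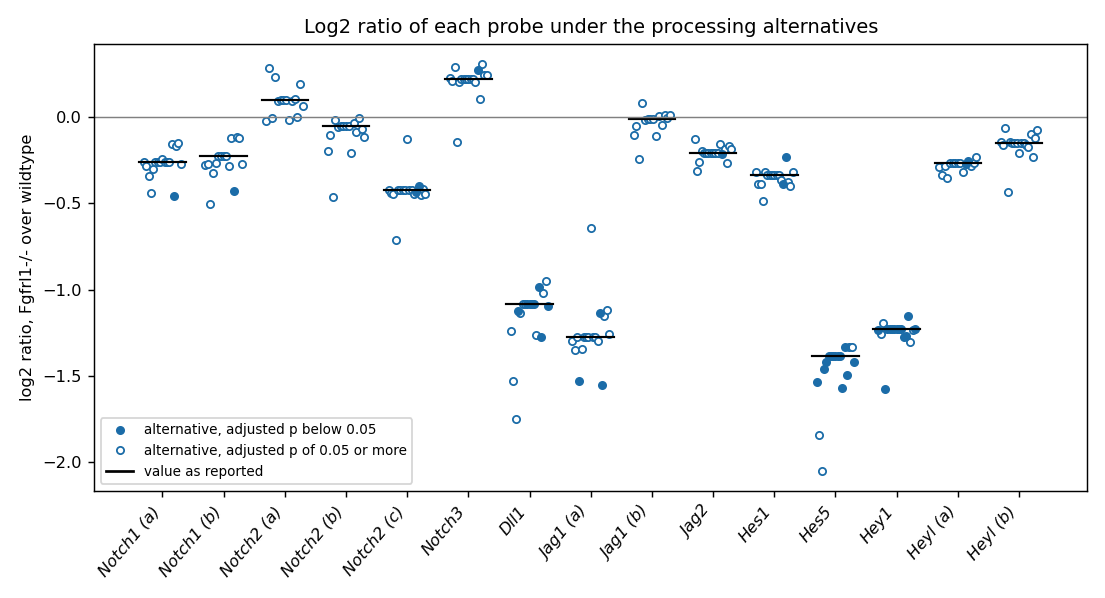
Log2 ratio of Fgfrl1-/- over wildtype (vertical axis) of the 15 probes (horizontal axis) under each processing alternative, filled where the adjusted p was below 0.05, with the reported value as a black line. Hes5 and Hey1 were called under 12 of 17 alternatives, Dll1 under 6 and Jag1 probe (a) under 3, and all 4 stayed negative throughout.

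Of 46 other genes of the pathway, from further ligands and receptors through ligand processing and cleavage to the transcription complex, 79 probes were measured. Of these, 0 were called lower (0.398% of all probes) and 1 was called higher (0.289% of all probes). At an unadjusted p below 0.05 there were 16 of the 79 probes, 5 lower and 11 higher, against 15.9% of all probes in either direction. Their median log2 ratio was 0.07, with a range of -0.50 to 0.75. The probe called was that of Dtx1, which encodes an E3 ubiquitin ligase of the Deltex family that binds the intracellular part of Notch. Its log2 signals were 11.21, 11.67 and 11.58 in the Fgfrl1-/- pools and 10.41, 10.96 and 10.84 in the wildtype pools, and the groups did not overlap. The ratios of 0.80, 0.72 and 0.74 gave a mean of 0.75 ± 0.0421 (SD, n = 3) with an adjusted p of 0.0346, and under 8 of the 17 alternatives 0 of the 79 probes were called higher.

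Rbpj, the DNA-binding partner of all Notch receptors, had ratios of 0.51, 0.31 and 0.17, a mean of 0.33 with an adjusted p of 0.168. Of the 2 further Delta-like ligands of the Notch receptors and the fourth receptor, none had an adjusted p below 0.05. Dll3 had a mean log2 ratio of -0.06, Dll4, a ligand of endothelial cells, one of 0.12, and Notch4, a receptor of endothelial cells, one of 0.0055, with adjusted p of 0.802, 0.703 and 0.986. Nrarp, a feedback inhibitor that Notch induces, had -0.40, 0.02 and -0.11, a mean of -0.17 with an adjusted p of 0.514. Hey2, Dlk1, Dlk2 and Dner are named here after their values were seen. Hey2, the third gene of the Hey group, had -0.27, -0.55 and -0.66, a mean of -0.50 with a 95% confidence interval of -0.74 to -0.25 and an adjusted p of 0.0961. The 2 probes of Dlk1, which encodes a Delta-like protein without the domain that binds Notch in the classical ligands, were positive on all 3 arrays, with means of 0.44 and 0.47 and adjusted p of 0.111 and 0.0778. Dlk2 had a mean of 0.03, and the 2 probes of Dner had means of -0.0092 and -0.05. The 2 probes of Lfng, a glycosyltransferase that modifies the receptors, had means of 0.09 and -0.03. The probe with the positive mean was well above background in 1 of 3 Fgfrl1-/- pools and 0 of 3 wildtype pools.

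Markers of the cell types that a rudiment can hold were read beside these genes. Of 12 probes of 8 renal vesicle genes, among them Wnt4, Fgf8 and Lhx1, 8 were called lower and 0 higher, with a median log2 ratio of -1.62. Their mean log2 level was 7.53 to 7.66 in the Fgfrl1-/- pools and 8.87 to 8.99 in the wildtype pools. Of the 12, 1 was above background in no pool. All of these genes but Ccnd1 are in the study's own list of genes lowered on these same arrays. Their fall was thus known beforehand and is no independent reading of the cell type. Ccnd1 had a mean log2 ratio of -0.40 with an adjusted p of 0.100. Of 11 cap mesenchyme probes, 1 was called lower and 0 higher, with a median of -0.26, and all 11 probes were well above background in every pool. The ureteric epithelium list had 1 lower and 1 higher of 12 (median 0.35), and the stroma list 0 lower and 3 higher of 17 (median 0.41). At an unadjusted p below 0.05 the renal vesicle list had 11 lower and 0 higher, and the cap mesenchyme list 6 lower and 0 higher. By the same measure the ureteric epithelium list had 1 lower and 8 higher, and the stroma list 1 lower and 9 higher. Over all probes this share was 15.9% in either direction.

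Of the endothelial probes, 0 of 16 were called, with a median of -0.03 and mean log2 levels of 8.34 to 8.73 in the Fgfrl1-/- and 8.44 to 8.57 in the wildtype pools. Of the 16 mural cell probes, 0 were called as well, with a median of -0.17. Erythroid (9 probes), macrophage (11), neural and neural crest (13), steroidogenic (8) and skeletal muscle (6) lists had 0 calls by limma's test, with medians of -0.07, 0.18, -0.01, -0.05 and 0.17. At an unadjusted p below 0.05 these 47 probes held 4 lower and 6 higher ones, 5 of the latter in the macrophage list. The endothelial list held 1 lower, and the mural cell list 4 lower and 1 higher. The share over all probes was 15.9% in either direction. The renal vesicle markers, all but Ccnd1 already listed as lowered on these arrays, fell in the same pools as Dll1, Hes5 and Hey1. The part of these markers' cells in those values was not tested.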

How the data were processed

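RNA of 3 Fgfrl1-/- pools (Cy3) and 3 wildtype pools (Cy5) was hybridized pairwise to 3 Agilent 2-colour arrays, and GEO's labels gave the groups and the numbers of the pools. The deposited scanner files (Agilent Feature Extraction 9.5.3.1 on array 1, 10.5.1.1 on the others) hold median spot and background intensities, processed intensities and the log10 ratio of wildtype over Fgfrl1-/-. A further deposited file gives the authors' log2 ratios, whose steps are not given in the sources used here and whose direction, opposite to that of the scanner ratios, was found by comparison with them.

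Median intensities were corrected with limma 3.58.1 (R 4.3.3) by normexp with an offset of 50, which draws the ratios of dim probes toward 0, and normalized by loess within each array. Outlier spots were left out after normalization and the spots of a probe averaged. Log2 ratios (Fgfrl1-/- over wildtype) entered lmFit and eBayes with an intercept and were tested 2-sided against 0, with Benjamini-Hochberg adjustment over all 41174 probes and a threshold of 0.05. Pooled embryos were the replicates, and 3 arrays limit the precision of every value. Signals of single pools came from the loess-normalized channels after quantile scaling of the mean signal (Aquantile) and serve as levels of 1 probe, not between probes. Median signals were 60 to 97 (Fgfrl1-/-) and 99.5 to 113 (wildtype) over backgrounds of 18 to 27 and 47 to 56, and 0 spots were saturated.

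Probe positions are those on mm8 in the file of array 1. All probes of the 10 genes were named, and of the other pathway genes those called and Notch4, Dll3, Dll4, Lfng, Rbpj and Nrarp. The gene symbols of all 15 probes matched RefSeq (GRCm38.p6). The genes, lists and tests were chosen with earlier results of these data known. The fit was tested on simulated data, and 17 alternatives were run: other background corrections, normalizations, filters, summaries and variance models, separate channels, the submitters' table, the slide as a fixed term, each array left out, and, chosen after seeing the data, spots centred along the rows of the array (lowess).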

Additional observations from a re-analysis of the deposited data

How the results depend on the processing

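The ratios of Dll1, Jag1 probe (a), Hes5, Hey1, Hes1, Jag2, Heyl and Notch1 kept their sign under all alternatives run. The number of called probes did not. The Notch genes had 0 probes called lower with a normexp offset of 0, with the scanner software's ratios and with trended robust variances. Over all probes these settings called 0 lower and 0 higher, 0 and 0, and 6 and 0 (4852, 6118 and 5551 at an unadjusted p below 0.05), and 0 of the other pathway probes were higher. With the slide as a fixed term 8 Notch probes were lower and 1 higher, 8 and 18 of the other pathway probes, and 4649 and 5632 of all probes. Leaving out one replicate, an array, gave 0 to 9 Notch probes called lower, 0 to 7 other pathway probes lower and 0 to 13 higher, and 0 to 4172 of all probes lower and 0 to 3494 higher. The high counts came without array 1 (12733 at an unadjusted p below 0.05), and 0 without array 2 or array 3 (3712 and 3141), where the remaining arrays are on different slides. Median centring called 91 lower and 2 higher of all probes, and scaling between arrays 282 and 297. Leaving out dim probes called 46 and 14 of 26254, and the ratios of the submitters 32 and 4. No background subtraction called 117 lower and 72 higher of all probes. Separate channels called 236 lower and 222 higher of all probes, and 3 Notch probes lower. That fit took in the pairing as a correlation of 0.45 between the 2 channels of a spot, with no further block of the array as replicate. With median centring, without dim probes and with the submitters' ratios, 0 of the other pathway probes were higher. The cause of these shifts was not tested.

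The ligand median was -0.83 with an offset of 0 and -1.08 without dim probes or with 1 probe per gene, which leave out Jag1 probe (b). The receptor median was -0.40 with the scanner's ratios, and the target median -0.78 with 1 probe or the mean of the probes per gene. Signs turned for Notch2 probe (a), to -0.021 without background subtraction, -0.0043 with the scanner's ratios and -0.016 with the submitters' ratios, and for Notch3, to -0.14 with median centring. Jag1 probe (b) turned to 0.082 with median centring, 0.0040 with the slide term and 0.013 with spots centred along the rows (chosen after seeing the data), and ranged from -0.043 to 0.013 with each array left out, positive without array 2. Dll1 and Hes5 had larger differences with an offset of 0 (-1.53 and -1.84) and with the scanner's ratios (-1.75 and -2.05). The slide as a random block could not be fitted.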
